A study of Mus musculus with 50 samples.

Results

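The genes described here make the machinery that loads peptides onto class I major histocompatibility complex (MHC) molecules: H2-K1, H2-D1, B2m, Tap1, Tap2, Tapbp, Psmb8, Psmb9, Psmb10 and Nlrc5. They were found by matching the Ensembl identifiers of the count matrix to these symbols, and all 10 were found among its 37469 genes. The level of each was taken in 48 p53/MCA sarcomas of 129/SvJae mice and in 2 further libraries labelled with line 402230.

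Primary tumors were started in p53 FL/FL mice aged 6 to 10 weeks by injecting Adeno-Cre, a virus that deletes Trp53 in the cells it infects, into the gastrocnemius, followed by 300 µg of the carcinogen MCA. Transplant tumors, labelled Allograft, grew in the same muscle of syngeneic mice from 50000 injected cells of 402230, so all 16 come from 1 cell line, whereas the 32 primaries arose in their hosts. At a volume of about 150 mm3 each mouse was given 200 µg of the anti-PD-1 antibody muDX400 or an isotype control, and then 0 or 20 Gy to the tumor-bearing limb (RT). Whole tumors were taken 3 days later, with 4 transplants and 8 primaries in each of the 4 combinations of antibody and dose. The study asked why transplants were cured by RT with anti-PD-1 and primaries were not. A tumor given isotype and 0 Gy is called untreated below.

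Class I molecules show fragments of a cell's own proteins to CD8+ T cells. The fragments are cut by the proteasome, whose 3 constitutive catalytic subunits (Psmb5, Psmb6, Psmb7) can be replaced by inducible ones (Psmb8, Psmb9, Psmb10). The transporter formed by Tap1 and Tap2 carries them into the endoplasmic reticulum, tapasin (Tapbp) holds the empty class I molecule at the transporter, and the heavy chains H2-K1 and H2-D1 present the peptide together with the light chain B2m. Interferons raise most of these genes, through factors such as IRF1 and through Nlrc5, a class I transactivator that works with factors bound to class I promoters.

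In the GENCODE annotation of GRCm38 (mm10), 7 of the 10 genes lie on chromosome 17. Psmb9 (chr17:34181987-34187764, minus strand), Tap1 (chr17:34187553-34197225, plus), Psmb8 (chr17:34197721-34201454, plus) and Tap2 (chr17:34203527-34216321, plus) follow each other within 34.3 kb. H2-K1 (chr17:33996017-34000347, minus) and Tapbp (chr17:33915899-33929292, plus) lie to one side of them and H2-D1 (chr17:35262730-35267499, plus) to the other. B2m is at chr2:122147686-122153083 (plus), Psmb10 at chr8:105935735-105938444 (minus) and Nlrc5 at chr8:94434356-94527272 (plus). All are protein-coding genes, and each value below is a count over a whole gene.

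Because these genes moved together, the promoters are shown of those whose start regions hold the elements named above. RefSeq entries (GRCm38.p6, 250 bases before the start site and 50 after it) were matched for 8 of the 10, the exceptions being Tap2 and Nlrc5. The RefSeq start can differ from the GENCODE gene start given above. The stretches shown for Psmb8 and H2-D1 and the bases before the Tapbp start lie inside those gene records. Whether a window holds an element therefore depends on the start used. In the stretches that follow, written 5′ to 3′ in the direction of the gene, capitals mark matches on either strand to an interferon regulatory factor core (AANNGAAA), the NF-kB consensus, the GAS-type element TTCNNNGAA or the CRE core TGACG. The first pair compares the 2 heavy chain genes, from bases -111 to -37 of H2-K1 (chr17:34000384-34000458, minus strand) and from -171 to -97 of H2-D1 (chr17:35262923-35262997, plus strand), counted from the RefSeq start.
H2-K1: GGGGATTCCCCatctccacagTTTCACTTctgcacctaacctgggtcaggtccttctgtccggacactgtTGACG
H2-D1: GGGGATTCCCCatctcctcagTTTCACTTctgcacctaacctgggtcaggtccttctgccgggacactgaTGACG
The 2 stretches share 71 of 75 bases (94.7%), and their 3 elements stand in the same order with the same spacing, 10 and then 41 bases apart. B2m, on another chromosome, has an interferon regulatory factor core, an NF-kB consensus and a CRE core between -137 and -74 (chr2:122147550-122147613, plus strand), with the first element ahead of the NF-kB consensus.
B2m: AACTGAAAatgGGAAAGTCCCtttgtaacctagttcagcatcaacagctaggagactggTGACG

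Tap1 and Psmb9 are transcribed away from each other, and 225 of the 250 bases before their starts are shared. One CRE core, at chr17:34187470-34187474, lies in the window of both genes, at -86 to -82 from the Tap1 start. The stretch shown for this shared promoter is chr17:34187306-34187555, read on the Tap1 strand.
Tap1: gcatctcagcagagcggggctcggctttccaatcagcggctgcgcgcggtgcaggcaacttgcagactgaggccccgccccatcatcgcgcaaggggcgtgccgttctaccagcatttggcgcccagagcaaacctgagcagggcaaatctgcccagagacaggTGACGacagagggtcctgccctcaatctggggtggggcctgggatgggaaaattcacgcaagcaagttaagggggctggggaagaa
Psmb8 is shown because it alone of the 8 held the GAS-type element, at -97 to -89 (stretch chr17:34198055-34198154, plus strand, -140 to -41).
Psmb8: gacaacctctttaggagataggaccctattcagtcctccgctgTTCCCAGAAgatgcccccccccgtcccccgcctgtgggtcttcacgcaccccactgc
Of the 8 windows, 3 held the interferon regulatory factor core, 5 the CRE core, 3 the NF-kB consensus and 6 a CCAAT box on either strand. Among all 32851 RefSeq windows of 300 bases the shares were 23.9%, 20.8%, 8.46% and 37.4%, and 8.3% held TTCNNNGAA. Psmb10 held none of these letters and Tapbp only CCAAT. A match is a description of the sequence and says nothing of whether a factor was bound in these tumors.

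The 50 libraries hold 31810461 to 54008259 gene-assigned reads each, and the lowest count of any of the 10 genes in a tumor was 591, for Nlrc5, so all 10 passed the filter on low counts. Levels are given as log2 CPM, the gene's reads scaled to the size of its library, on which 1 unit is a doubling. The summed level of 6 mesenchymal markers, checked because sarcomas are mesenchymal tumors, was 3790 to 57900 CPM over the 48 tumors. In the mean of the 10 genes 3 tumors stood apart. The untreated primary of replicate 4 was at 8.58, where the other 7 were between 6.66 and 7.61. The primary given RT and anti-PD-1 of replicate 5 was at 6.77, where the other 7 were between 7.88 and 9.09. The untreated transplant of replicate 4 was at 7.36, below the other 3 at 8.19 to 8.75. Where leaving out such a tumor changed how many of the 10 genes were called between groups, both counts are given. The subunit ratios below were not redone without either of these primaries. The averaged contrasts were not refitted without any of the 3 tumors. Correlations within groups were not redone without each of the 3 in turn, and the relations of Nlrc5 and Ptprc left out tumors by a separate rule.

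The order of the genes by level per kb of exon was steep. All annotated exons of a gene were joined for this length, 3381 bases for Psmb8 and 3660 for Psmb9. A transcript can be shorter, so the ranks depend on the annotation. In untreated primaries the mean log2 CPM per kb was 10.50 for B2m, 8.68 for H2-D1, 8.04 for H2-K1, 6.07 for Tapbp, 4.99 for Psmb10 and 4.78 for Psmb8. It was 3.89 for Tap2, 3.83 for Tap1, 3.24 for Psmb9 and 1.62 for Nlrc5, so the transactivator was the scarcest of the 10 and the light chain the most abundant. H2-D1 and H2-K1, Psmb10 and Psmb8, Tap2 and Tap1, and Tap1 and Psmb9 were neighbours that differed by less than the SD between untreated primaries, which had a median of 0.73 over the 10 genes. H2-K1, H2-D1 and the H2-Q genes have near-identical stretches. Reads from these stretches may have been left out or counted for another of these genes, so their separate levels are uncertain. Nlrc5 is overlapped on the other strand by 9330175E14Rik (29 to 702 reads a tumor), and Tapbp by Gm19412 (52 to 401 reads) and on its own strand by Zbtb22 (561 to 1245 reads).

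Every one of the 10 genes had its lowest level of the 48 tumors in an untreated primary. The highest was in a transplant given RT and anti-PD-1 for 9 of them, and for Tapbp, the exception, in a primary given RT and isotype (9.84). Nlrc5 spanned 3.75 to 7.58, Psmb9 4.28 to 8.24 and Tap1 5.63 to 9.02, whereas B2m spanned 9.39 to 11.94.

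**Figure D1:**
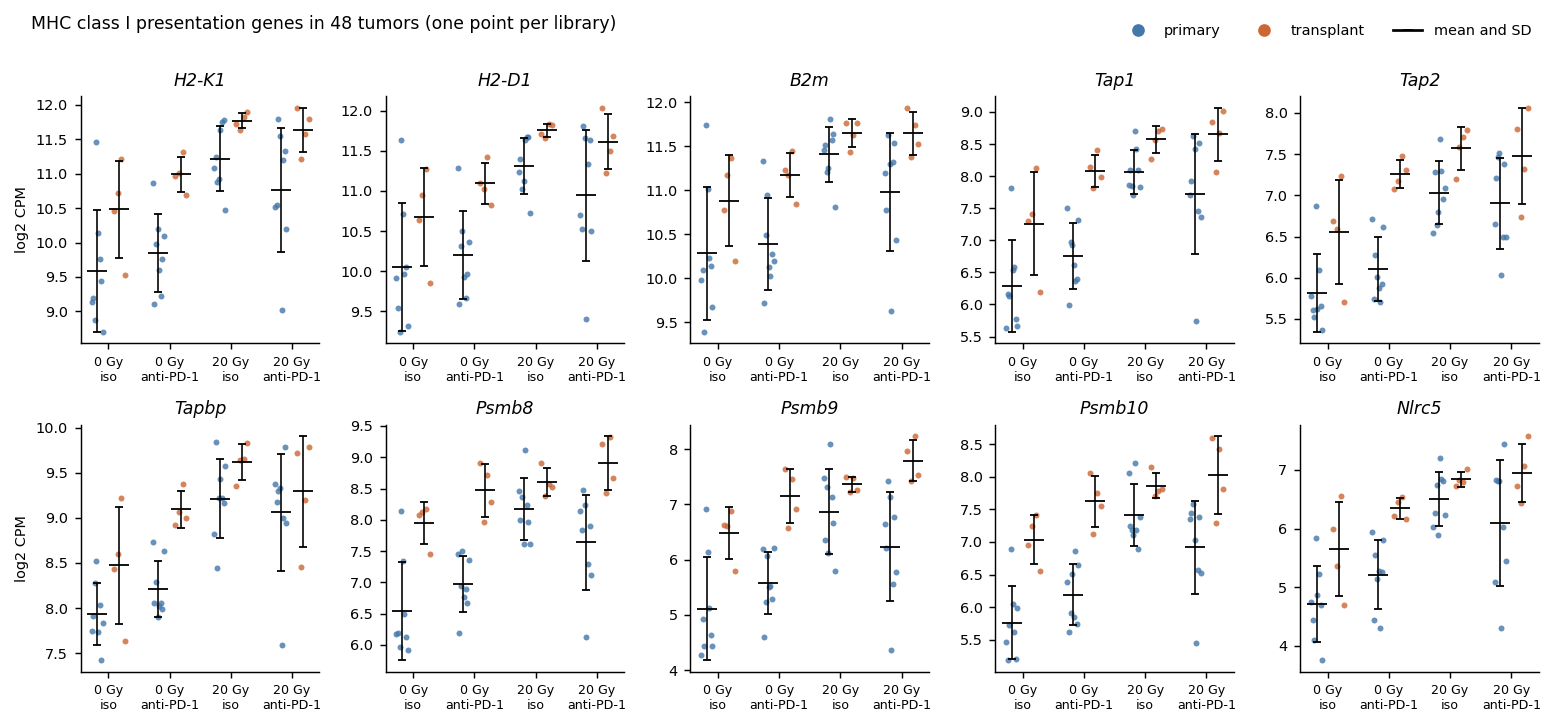
Each panel shows 1 gene. The y axis is log2 CPM, the x axis the 4 treatments, each point is 1 tumor (blue primary, orange transplant), and bars are the mean and SD of 8 primaries or 4 transplants. In every panel the untreated primaries hold the lowest tumor, and the single high untreated primary and single low primary given RT and anti-PD-1 are seen across panels.

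The first comparison asked what separates the models before any treatment. Untreated transplants had 2.32-fold more Psmb8 and 2.31-fold more Psmb10, both inducible proteasome subunits, than untreated primaries. The other 8 genes had higher means in transplants too, by 0.47 to 1.11 on the log2 scale, and did not pass the threshold. The constitutive subunits Psmb5, Psmb6 and Psmb7 did not pass in this or any other comparison, with differences here of -0.16 to 0.18.

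Psmb8 was at 8.07, 8.12, 8.17 and 7.45 log2 CPM in the 4 untreated transplants. In the 8 untreated primaries it ran from 5.92 to 8.14 around a median of 6.18. The primary of replicate 4 was alone in reaching the transplants, and 7 of 8 primaries lay below all 4 transplants. The log2 difference was 1.22 (SE 0.335, edgeR adjusted p = 0.0153).
Psmb10 was at 6.95, 7.24, 7.41 and 6.55 in the transplants. In the primaries it ran from 5.18 to 6.89 around a median of 5.67, and again 7 of 8 primaries were below every transplant. The log2 difference was 1.21 (SE 0.298, edgeR adjusted p = 0.00632).

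The transporter and loading genes were less separated. Tap1 was at 7.30, 7.41, 8.13 and 6.19 in transplants, against 5.63 to 7.81 with a median of 6.15 in primaries, a difference of 0.94 (SE 0.348, edgeR adjusted p = 0.0727). The low transplant lay among the primaries and the high primary among the transplants. Tap2 differed by 0.76 (SE 0.268, edgeR adjusted p = 0.0605) and Tapbp by 0.61 (SE 0.26, adjusted p = 0.128). Nlrc5 was at 6.00, 5.36, 6.55 and 4.70 in transplants, against 3.75 to 5.84 with a median of 4.73 in primaries, a difference of 0.98 (SE 0.371, edgeR adjusted p = 0.0836).

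Among the genes of the presented complex, H2-D1 and B2m had the smallest differences of the 10. H2-K1 was at 10.46, 10.72, 11.22 and 9.53 in transplants and 8.70 to 11.46 in primaries, around a median of 9.32. Its difference was 0.72 with a 95% interval of -0.05 to 1.50, and those of H2-D1 and B2m were 0.49 (-0.21 to 1.20) and 0.47 (-0.16 to 1.10). For these 3 genes the highest of the 12 untreated tumors was a primary.

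In all, 2 of the 10 genes were higher in untreated transplants, where 3.88% of the 19327 genes tested were. The median log2 difference was 0.85 over the 10 and -0.01 over all genes tested, and 7 of the 10 had an unadjusted p under 0.05, as did 25.3% of all genes tested. Without the high primary of replicate 4 the count of 2 became 7, and without the low transplant of replicate 4 it became 4. Fitted with the 2 groups alone, 1 of the 10 passed.

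Other genes of the route were split. Of 8 further processing and loading genes, 3 were higher in untreated transplants: Tapbpl (1.30, SE 0.27), which edits peptides on class I molecules, and the proteasome activator subunits Psme1 (0.70, SE 0.228) and Psme2 (0.84, SE 0.266). None of 9 other class I heavy chain genes tested passed, with 1 at an unadjusted p under 0.05. Of the interferon signalling genes described here 2 were higher, Ifng, which encodes interferon gamma (2.85, SE 0.827, edgeR adjusted p = 0.0213), and its target factor Irf1 (1.23, SE 0.296, adjusted p = 0.0052). Scaled over 50 libraries, Ifng was at -3.83 to -1.05 log2 CPM in untreated primaries, where 0 reads stand at -4.40, and -1.67 to 1.13 in untreated transplants. Its difference here, and with RT in primaries below, therefore rests on few reads in untreated primaries. Of 8 promoter-binding partners of Nlrc5, Rfxap was lower in transplants (-0.53, SE 0.161, edgeR adjusted p = 0.0288).

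Cells other than tumor cells also express these genes, and in whole tumors fewer cells of a type and less RNA per cell cannot be told apart. The summed level of 5 leukocyte markers was 508 to 1040 CPM in untreated transplants and 433 to 719 CPM in untreated primaries, and 0 of the 5 passed the edgeR threshold, with 1 at an unadjusted p under 0.05. Of 6 T cell markers Cd8a passed, at 2.19 (SE 0.698). The mean log2 level over the 6 T cell markers was 2.64 to 3.88 in untreated transplants and 0.68 to 3.12 in untreated primaries. Cd4 alone had the lower mean in transplants, at 2.93 against 3.18. Of 6 NK and cytotoxic cell markers Klrb1c was lower, at -2.59 (SE 0.853), and the others did not pass, with Ncr1 at -1.31 and Gzma, Gzmb, Prf1 and Nkg7 at 0.58 to 1.39. The mean log2 level over those 6 was 1.68 to 3.46 in untreated transplants and 0.97 to 4.91 in untreated primaries, with the highest value in the high primary of replicate 4. The part of such cells in the difference was not tested.

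**Figure D2:**
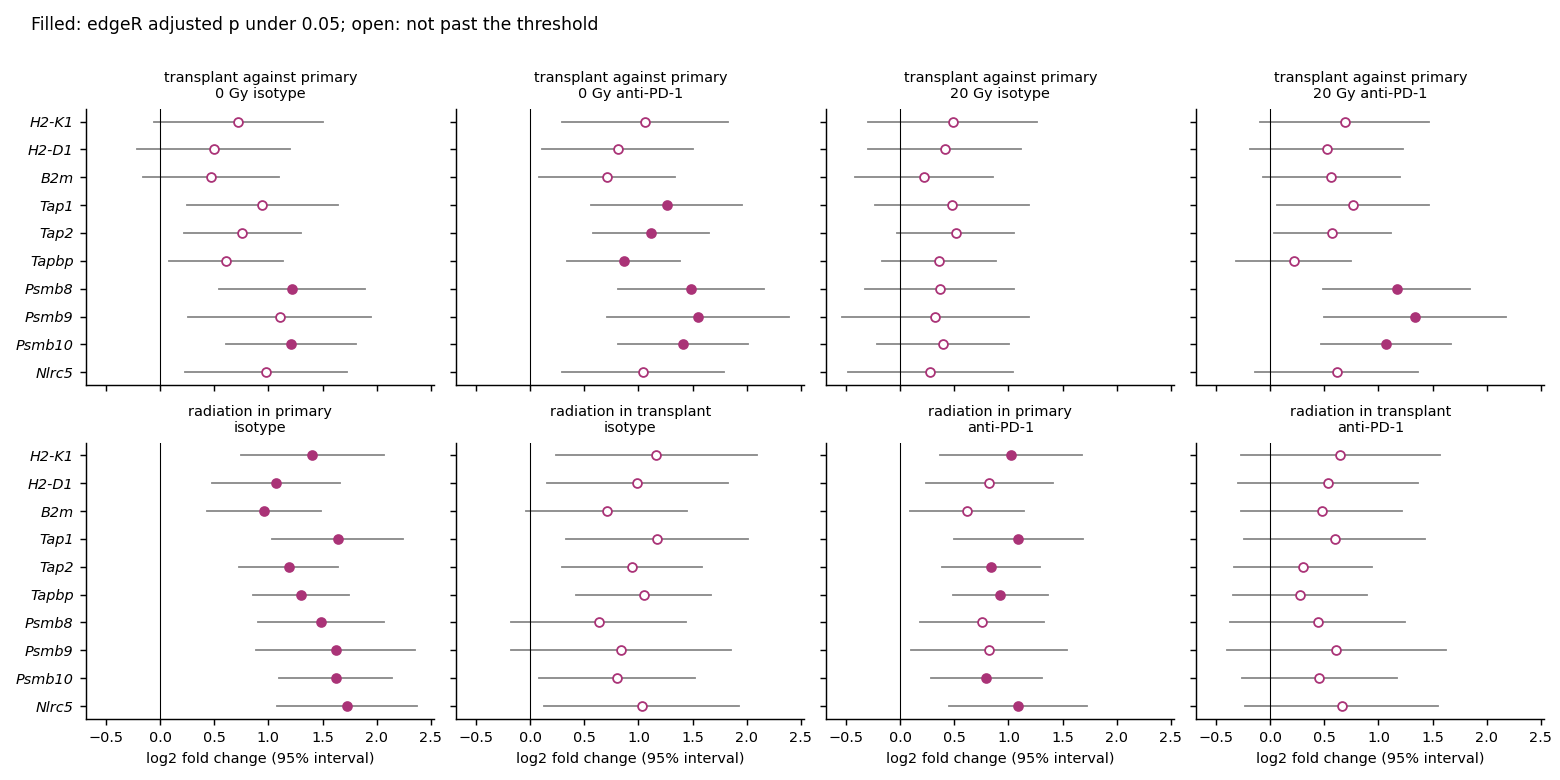
Log2 fold changes of the 10 genes (rows) in 8 comparisons (panels), with 95% intervals from edgeR. Filled points passed an adjusted p of 0.05: 2, 6, 0 and 3 in the upper row (transplant against primary) and 10, 0, 6 and 0 in the lower row (20 against 0 Gy).

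Among unirradiated tumors given anti-PD-1, 6 of the 10 genes were higher in transplants. These were both transporter genes, tapasin and the 3 inducible proteasome subunits. For 7 genes, the same 6 and Nlrc5, every transplant was above every primary. The groups for H2-K1, H2-D1 and B2m overlapped.

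Psmb9 was at 7.65, 6.58, 7.46 and 6.92 log2 CPM in these transplants, against 4.60 to 6.21 with a median of 5.51 in the primaries. Every transplant was above every primary, and the difference was 1.55 (SE 0.416, edgeR adjusted p = 0.0161). Psmb8 was at 8.91, 7.97, 8.71 and 8.29, against 6.19 to 7.50 with a median of 6.93, a difference of 1.49 (SE 0.334, edgeR adjusted p = 0.00368). Psmb10 differed by 1.41 (SE 0.297, edgeR adjusted p = 0.00195).
Tap1 was at 8.14, 7.82, 8.40 and 7.98 in transplants, against 5.99 to 7.50 with a median of 6.76, a difference of 1.26 (SE 0.346, edgeR adjusted p = 0.018). Tap2 differed by 1.11 (SE 0.266, edgeR adjusted p = 0.00627) and Tapbp by 0.86 (SE 0.258, adjusted p = 0.0317). Nlrc5, at 6.17 to 6.54 in transplants and 4.31 to 5.94 in primaries, differed by 1.04 (SE 0.371, edgeR adjusted p = 0.0749).
H2-K1 differed by 1.06, H2-D1 by 0.81 and B2m by 0.71, with edgeR adjusted p from 0.0795 to 0.164.

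The count of 6 compares with 3.39% of all genes tested that were higher, and the 7 without overlap with 2.68%. The median difference over the 10 genes was 1.09, against 0.01 over all genes. The same 3 further processing genes, Tapbpl, Psme1 and Psme2, passed here, with H2-T23 among the other heavy chains. Of the interferon signalling genes Ifng (3.23, SE 0.804), Irf1 (1.28, SE 0.296) and Socs1 (1.20, SE 0.294) were higher, and of the NK and cytotoxic cell markers Gzmb (2.71, SE 0.629) and Nkg7 (1.78, SE 0.576). The summed leukocyte markers were at 565 to 1260 CPM in these transplants and 451 to 748 CPM in these primaries, and their part in the difference was not tested. The count of 6 fell to 3 without the transplant of replicate 1 and to 2 without that of replicate 3.

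Irradiated tumors were compared between models in the same way. With isotype, 0 of the 10 genes passed in edgeR, where 2.47% of genes tested were higher. None of the 10 had an unadjusted p under 0.05, as 18.6% of all genes tested did. limma voom and DESeq2 also called 0 of the 10. The differences were 0.22 to 0.51, and the upper bounds of their 95% intervals ran up to 1.26. With anti-PD-1 the 3 inducible subunits passed again, Psmb8 at 1.17 (SE 0.335), Psmb9 at 1.34 (SE 0.417) and Psmb10 at 1.07 (SE 0.299), with edgeR adjusted p of 0.0302, 0.0428 and 0.0265. For each of them 3 of the 4 transplants lay above all 8 primaries. These 3 compare with 3.04% of genes tested. None of the 3 passed without the transplant of replicate 1 or 3 or without the primary of replicate 6 or 8, and 1 did without the primary of replicate 5. Fitted with the 2 groups alone, 0 of the 10 passed in edgeR, and 2 of all genes tested did. Ptprc (1.44, SE 0.341), Coro1a and Cd52 of the 5 leukocyte markers were higher in these transplants too, with the list at 1710 to 2210 CPM against 365 to 1860 CPM in primaries, and their part was not tested.

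Averaged over the 4 treatments, a contrast added after the single comparisons had been seen, all 10 genes were higher in transplants, where 15.7% of genes tested were. The averaged differences were 1.08 (SE 0.21) for Psmb9, 1.06 (SE 0.168) for Psmb8 and 1.02 (SE 0.149) for Psmb10. They were 0.86 for Tap1, 0.74 for Tap2, 0.74 for H2-K1, 0.73 for Nlrc5, 0.56 for H2-D1, 0.51 for Tapbp and 0.49 for B2m. The edgeR adjusted p ran from 7.91e-07 for Psmb10 to 0.0123 for B2m. These values and the SEs measure spread between tumors, with every transplant from the same line, and not spread between transplanted lines.

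In primary tumors RT raised the whole set. With isotype all 10 genes were higher 3 days after 20 Gy, by 1.94-fold for B2m to 3.31-fold for Nlrc5, where 9.19% of genes tested were higher. The median log2 change was 1.44 over the 10 genes and -0.01 over all genes. This comparison uses the untreated primaries that also served against the untreated transplants.

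Nlrc5 was between 5.89 and 7.20 log2 CPM in the 8 irradiated primaries, with a median of 6.51, and between 3.75 and 5.84 in the untreated ones. It alone of the 10 showed no overlap, where 1.45% of genes tested showed none, and its change was 1.73 (SE 0.321, edgeR adjusted p = 0.00015). Psmb10 was between 6.89 and 8.22 around a median of 7.22, with a change of 1.62 (SE 0.258, edgeR adjusted p = 2.16e-05). Tap1 was between 7.71 and 8.71 around a median of 7.97, with a change of 1.64 (SE 0.3, edgeR adjusted p = 0.000124). For both of these 7 of the 8 irradiated primaries were above all 8 untreated ones, the high untreated primary of replicate 4 being the tumor that met them.
Tapbp rose by 1.30 (SE 0.22, edgeR adjusted p = 4.89e-05) and Tap2 by 1.19 (SE 0.227, adjusted p = 0.00023). Psmb9 rose by 1.62 (SE 0.362, edgeR adjusted p = 0.00133) and Psmb8 by 1.48 (SE 0.289, adjusted p = 0.000288). The presented complex rose too, H2-K1 by 1.40 (SE 0.328), H2-D1 by 1.07 (SE 0.293) and B2m by 0.96 (SE 0.262), with edgeR adjusted p of 0.0021, 0.00817 and 0.00826. H2-K1 was between 10.47 and 11.78 in irradiated primaries around a median of 11.16, and 7 of the 8 untreated primaries were below all of these.

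The rise took in most of the route. Of the 8 further processing genes, the trimming aminopeptidase Erap1 (0.64, SE 0.19), Tapbpl (1.18, SE 0.232), Psme1 (0.96, SE 0.193) and Psme2 (1.10, SE 0.225) passed, and the chaperones Calr, Canx and Pdia3 and the proteasome assembly factor Pomp did not. All 9 other heavy chain genes tested rose, by 1.17 to 1.99, while H2-Q1 and H2-Q2 had too few reads to test. Of the interferon signalling genes Ifng (2.27, SE 0.737), Stat2 (1.72, SE 0.246), Irf1 (1.49, SE 0.255), Socs1 (1.10, SE 0.251) and Irf9 (1.03, SE 0.184) rose, and Irf2, Ifnar2, Tyk2 and Jak2 rose by 0.42 to 0.66. None of the 8 promoter-binding partners of Nlrc5 passed in edgeR, with 4 at an unadjusted p under 0.05, as were 32% of all genes tested. The constitutive subunits changed by -0.11 to 0.16.
Leukocyte markers moved with these genes: 4 of 5 passed, among them Ptprc, the pan-leukocyte phosphatase CD45 (1.07, SE 0.292), and their summed level was 708 to 1770 CPM after RT against 433 to 719 CPM before. Of NK and cytotoxic cell markers 3 of 6 passed and of macrophage markers 3 of 6, and of T cell, mesenchymal and skeletal muscle markers none did in edgeR, with 0, 0 and 2 at an unadjusted p under 0.05. The muscle markers differed by 2.04 to 2.53 with edgeR adjusted p from 0.135 to 0.262. With the muscle list as a covariate all 10 genes still passed. The part of the leukocytes was not tested.

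In the anti-PD-1 arm of the primaries 6 of the 10 genes rose with RT, where 7.92% of genes tested were higher. These were H2-K1 (1.02, SE 0.325), Tap1 (1.09, SE 0.295), Tap2 (0.84, SE 0.226), Tapbp (0.92, SE 0.219), Psmb10 (0.80, SE 0.253) and Nlrc5 (1.09, SE 0.316), with edgeR adjusted p from 0.00458 to 0.0342. H2-D1, B2m, Psmb8 and Psmb9 had differences of 0.62 to 0.82 and adjusted p of 0.0596 to 0.126. The irradiated tumor of replicate 5 was below every other tumor of its group for all 10 genes, at 4.36 log2 CPM for Psmb9 against 5.56 to 7.43 in the other 7. Its leukocyte list mean was 4.70, its T cell list mean -1.07 and its NK and cytotoxic cell list mean 0.73, each the lowest of its group. Without it all 10 genes passed, and without the tumor of replicate 7, 3 did. Fitted with the 2 groups alone, 2 of the 10 passed, and in limma voom 3.

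In transplants the changes with RT had the same sign and did not pass. With isotype the log2 changes ran from 0.63 for Psmb8 to 1.17 for Tap1, and 0 of the 10 passed in edgeR, with 7 at an unadjusted p under 0.05, as were 12.1% of all genes tested. The nearest was Tapbp at 1.05 (SE 0.31, edgeR adjusted p = 0.0649). limma voom and DESeq2 each called 1 of the 10, and 1.82% of all genes tested were higher. The median change was 0.97 over the 10 and -0.03 over all genes.

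The 4 irradiated transplants lay close together and above the untreated ones. H2-K1 was at 11.72, 11.64, 11.82 and 11.89 log2 CPM after RT, against 10.46, 10.72, 11.22 and 9.53 before. Tap1 was at 8.27, 8.57, 8.71 and 8.74, against 7.30, 7.41, 8.13 and 6.19. Nlrc5 was at 6.72, 6.83, 6.80 and 7.01, against 6.00, 5.36, 6.55 and 4.70.
For 9 of the 10 genes every irradiated transplant was above every untreated one, Tap2 being the exception, and 9.03% of genes tested showed this. The untreated transplants were spread widely, with a median SD of 0.62 over the 10 genes against 0.31 over all genes, and the irradiated ones narrowly, with 0.18 against 0.30. Without the untreated transplant of replicate 3, the highest of its group, 3 of the 10 passed.
Of the other lists, 0 of 8 processing genes passed in edgeR with 2 at an unadjusted p under 0.05, and 1 of 9 heavy chain genes did, H2-T24 (2.26, SE 0.415). Stat2 (1.61, SE 0.346), Irf9 (1.15, SE 0.261) and Irf2 (0.81, SE 0.216) passed among the interferon genes. Ptprc (1.57, SE 0.418) and Laptm5 (1.16, SE 0.282) passed among leukocyte markers, whose sum was 1330 to 1970 CPM against 508 to 1040 CPM. Of 6 macrophage markers Fcgr1 (1.56, SE 0.391) passed, and the mean log2 level over the 6 was 8.38 to 8.92 after RT against 7.33 to 8.05 before. None of 6 NK and cytotoxic cell markers passed in edgeR, with Gzma and Gzmb at an unadjusted p under 0.05, and their summed level was 223 to 353 CPM against 34.8 to 147 CPM. The part of these cells was not tested.

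With anti-PD-1 the changes with RT in transplants were 0.28 to 0.66, with 0 of 10 called by edgeR, limma voom or DESeq2. By edgeR 0.538% of genes tested were higher. None of the 10 had an unadjusted p under 0.05 in edgeR, as 13.1% of all genes tested did. The lowest of the irradiated tumors, replicate 2, was at 6.74 for Tap2 and 8.46 for Tapbp, below all 4 unirradiated transplants given anti-PD-1 for both genes.

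Whether RT acted differently in the models was tested by an interaction term, for which 0 of the 10 genes passed in either antibody arm by edgeR, limma voom or DESeq2. The transplant change minus the primary change was -0.85 to -0.08 with isotype, with Psmb8 at -0.85 (95% interval -1.84 to 0.14) and Psmb10 at -0.82 (-1.70 to 0.06). It was -0.65 to -0.14 with anti-PD-1. Of all genes tested, 0.00517% passed with isotype and 0% with anti-PD-1, and 9.87% and 4.76% had an unadjusted p under 0.05. With both antibodies averaged, RT raised all 10 genes in primaries by 0.79 to 1.41 (edgeR adjusted p from 5.5e-07 to 0.0011, 16.8% of genes tested higher). In transplants 0 of 10 passed, with changes of 0.54 to 0.91, 9 of them at an unadjusted p under 0.05. Of all genes tested, 19.5% had such a p and 5.85% passed as higher. The averaged interaction was -0.58 to -0.19 with 0 of 10 called, where 0.0259% of genes passed, so a difference between the models in the response to RT was not detected, and the widest interval among the averaged terms reached -1.37 for Psmb9.

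Anti-PD-1 alone was not seen to change any of the 10 genes. In all 4 comparisons edgeR called 0 of the 10 and 0% of genes tested, with 3.66%, 0.678%, 10.1% and 2.65% of genes at an unadjusted p under 0.05 in unirradiated primaries, unirradiated transplants, irradiated primaries and irradiated transplants. limma voom called no gene and DESeq2 called 6, 1, 45 and 1 genes in these comparisons, none of them among the 10. In unirradiated tumors the differences were 0.00 to 0.48 in primaries and 0.24 to 0.69 in transplants. In irradiated primaries they were -0.56 to -0.09 and in irradiated transplants -0.25 to 0.45. Tap2 in unirradiated transplants came nearest, at 0.62 with a 95% interval of -0.02 to 1.26 and an unadjusted p of 0.0592 in edgeR. In unirradiated transplants the upper ends of the 95% intervals ran from 0.98 for B2m to 1.69 for Psmb9.

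The balance of inducible to constitutive proteasome subunits was followed as a log2 ratio of counts within each library, which does not depend on how libraries are scaled. Each inducible subunit was paired with the constitutive subunit it replaces, and 9 comparisons were made by two-sided exact permutation tests with Benjamini-Hochberg adjustment over the 9. In untreated tumors all 3 ratios were higher in transplants. RT raised all 3 in primaries and 1 of the 3 in transplants.

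The Psmb10 to Psmb7 ratio was -0.15 ± 0.36 (SD, n = 4) in untreated transplants and -1.55 ± 0.53 (SD, n = 8) in untreated primaries. The difference of 1.40 had an exact permutation p = 0.00404 and adjusted p = 0.00909. After RT the ratio in primaries was 0.19 ± 0.31 (SD, n = 8), above every untreated primary, with an exact permutation p = 0.000155, the smallest that 12870 splits allow, and adjusted p = 0.0014. In irradiated transplants it was 0.79 ± 0.05 (SD, n = 4), above every untreated transplant, with an exact permutation p = 0.0286, the smallest that 70 splits allow, and adjusted p = 0.0429.
The Psmb8 to Psmb5 ratio was 2.32 ± 0.48 (SD, n = 4) in untreated transplants and 0.94 ± 0.70 (SD, n = 8) in untreated primaries (exact permutation p = 0.0101, adjusted p = 0.0182). It was 2.54 ± 0.40 (SD, n = 8) in irradiated primaries, 1.60 higher than in untreated ones (exact permutation p = 0.000311, adjusted p = 0.0014). In irradiated transplants it was 2.95 ± 0.20 (SD, n = 4), 0.63 higher, with 3 of 4 above every untreated one (exact permutation p = 0.0571, adjusted p = 0.0571).
The Psmb9 to Psmb6 ratio was -1.21 ± 0.68 (SD, n = 4) in untreated transplants and -2.36 ± 0.75 (SD, n = 8) in untreated primaries (exact permutation p = 0.0364, adjusted p = 0.0468). It was -0.78 ± 0.56 (SD, n = 8) in irradiated primaries (exact permutation p = 0.000777, adjusted p = 0.00233) and -0.17 ± 0.37 (SD, n = 4) in irradiated transplants (exact permutation p = 0.0571, adjusted p = 0.0571). The difference between untreated models lost its call without the transplant of replicate 1, 2 or 3, with values of 1.12, 1.14 and 0.90. Without the untreated transplant of replicate 3 the rise in irradiated transplants passed for Psmb8 to Psmb5 (0.81) and Psmb9 to Psmb6 (1.29), each at an exact permutation adjusted p of 0.0321.

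**Figure D3:**
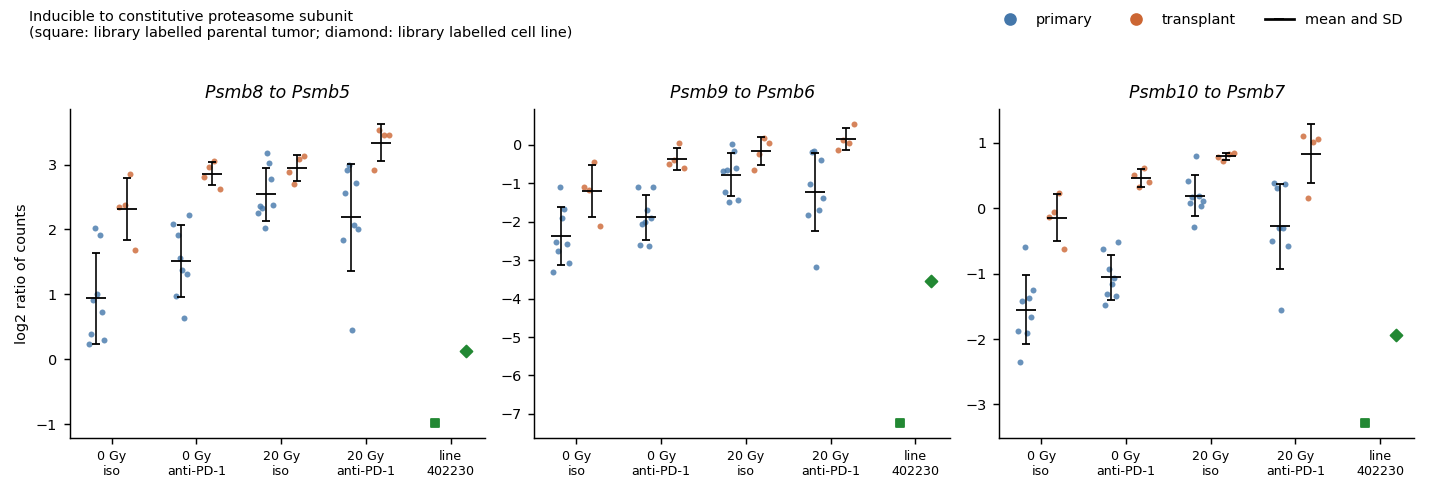
Log2 ratios of counts (y axis) of Psmb8 to Psmb5, Psmb9 to Psmb6 and Psmb10 to Psmb7 by treatment (x axis), 1 point per tumor with the mean and SD of 8 primaries (blue) or 4 transplants (orange). Green symbols are the 2 libraries labelled with line 402230, and the one labelled parental tumor is the lowest of all 50 libraries in each panel.

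The 10 genes varied together from tumor to tumor within groups. With each gene's group mean taken off, the 45 pairs had Pearson r between 0.426 (Tapbp with Psmb9) and 0.982 (H2-K1 with H2-D1), with a median of 0.789 over the 48 tumors, which share their library scaling. Psmb8 and Psmb9 stood at 0.967. Tap1 and Psmb9 share a promoter and their gene records overlap by 212 bases, and H2-K1 and H2-D1 share near-identical sequence. Reads from the shared stretches may have been left out or counted for the other gene of the pair.
By the same measure, the 3 genes most like each member were taken from 11724 others. H2-Q6 was nearest to H2-K1 (r = 0.956) and H2-D1 (0.923), and H2-Q7 to B2m (0.933). Igtp, an interferon-inducible GTPase, was nearest to Tap1 (0.947) and Tap2 (0.841), and the related Irgm2 to Tapbp (0.877). H2-M3 was nearest to Psmb8 (0.919) and Psmb9 (0.914). Next to Psmb9 stood 2 leukocyte genes, Cd52 (0.906), which is among the 5 leukocyte markers, and the Fc receptor Fcgr4 (0.889). Psme1 was nearest to Psmb10 (0.903), and 9330175E14Rik, which overlaps Nlrc5 on the other strand, to Nlrc5 (0.843). The other two places were held by Gm11131, H2-Q4, H2-Q6 and H2-Q7 for the presented complex (0.908 to 0.934), and by Iigp1, Gbp6, Gbp2, Batf2 and Parp14 for the transporter and tapasin (0.83 to 0.928). They were held by H2-T22 and Ifi47 for Psmb8, by Nmi and Ifi47 for Psmb10 and by Gbp5 and Gbp4 for Nlrc5 (0.84 to 0.896).

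How Nlrc5 and Ptprc ran with the set was tested within each model as 38 relations, on values with the group mean taken off, by permuting tumors within groups. In the 32 primaries all 9 relations of Nlrc5 passed for r, from r = 0.479 for Psmb10 (rho = 0.379, permutation p = 0.0165 for r and 0.0495 for rho, adjusted p = 0.0285 and 0.0896) to r = 0.854 for Tap2 (rho = 0.841, permutation p = 1e-05 for both, the smallest the permutations can give, adjusted p = 6.33e-05 and 9.50e-05). The 2 primaries whose Nlrc5 level lay farthest from the median of all 32 were then left out. Levels before the group means were taken off set this choice, so these need not be the outlying points of the relation. The range of r was then 0.502 to 0.85.
In the 16 transplants 4 of the 9 relations passed for r: Tap1 (r = 0.851, rho = 0.6, permutation p = 0.00824 and 0.0544, adjusted p = 0.0157 and 0.094), Tap2 (r = 0.839), Tapbp (r = 0.81) and H2-K1 (r = 0.784). None passed for rho, which was 0.476 to 0.641 for these 4 with adjusted p of 0.0883 to 0.207. For the 3 inducible subunits r was 0.312 to 0.44 with adjusted p of 0.223 to 0.341 by permutation. It was 0.017 to 0.139 without the 2 transplants farthest in Nlrc5 by the same rule. Both were untreated transplants, replicates 4 and 2, at 4.70 and 5.36 log2 CPM. The difference between models in these relations was not tested.
Ptprc, the leukocyte marker, ran with the set as well. In primaries 9 of 10 relations passed for r, highest for Psmb9 (r = 0.771, rho = 0.74, permutation p = 1e-05 and 2.00e-05, adjusted p = 6.33e-05 and 0.000127), and Tapbp did not pass (r = 0.379, rho = 0.253, permutation p = 0.0949 and 0.18, adjusted p = 0.129 and 0.228). In transplants 3 of 10 passed for r, H2-K1, H2-D1 and B2m, at 0.621 to 0.726, and none for rho. Without the 2 transplants farthest in Ptprc, again by level before the group means were taken off, these 3 values of r were 0.437 to 0.613.

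**Figure D4:**
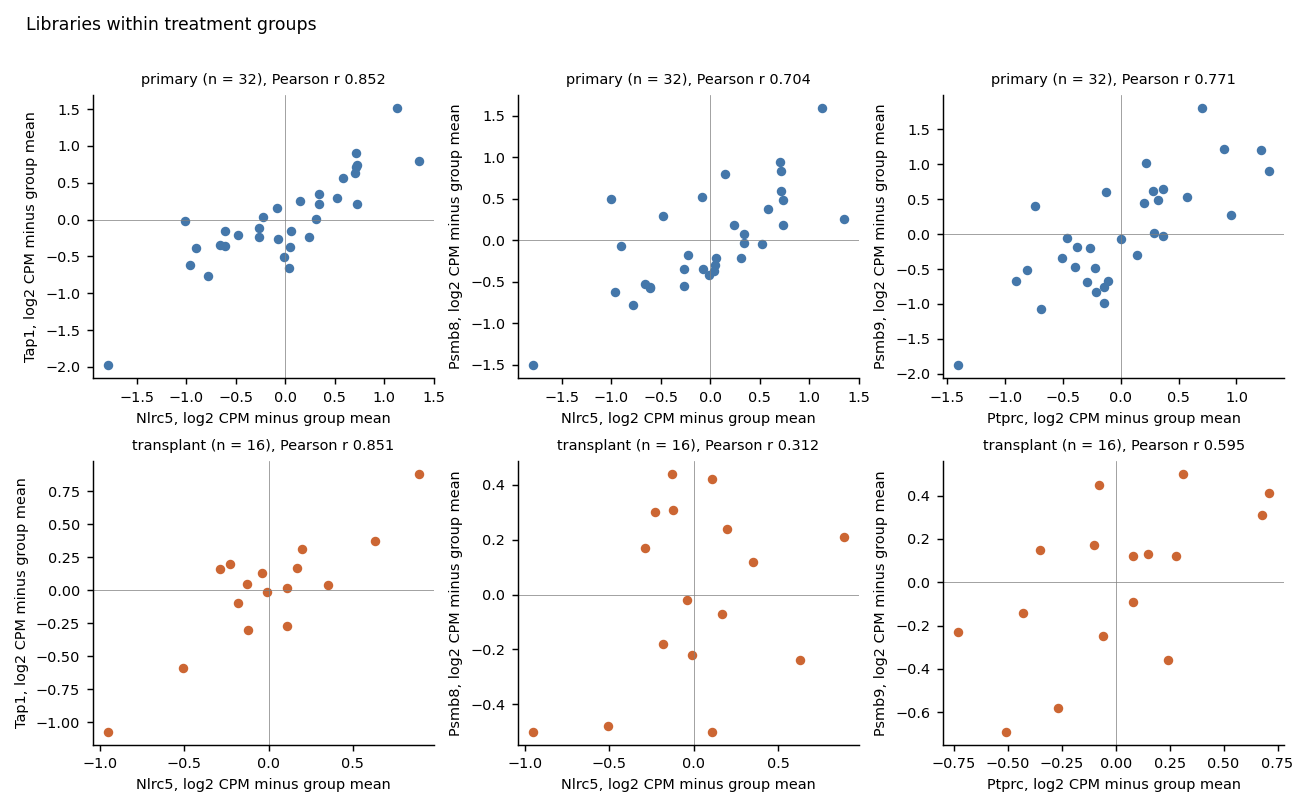
Log2 CPM minus the mean of the tumor's treatment group, for Tap1 and Psmb8 against Nlrc5 and for Psmb9 against Ptprc. Each point is 1 tumor, with 32 primaries in the upper row and 16 transplants in the lower. Tap1 runs with Nlrc5 in both models (r = 0.852 and 0.851), while Psmb8 in transplants scatters (r = 0.312).

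The 2 libraries labelled with line 402230, 1 as the parental primary tumor and 1 as the cell line, have no replicates, so they are given as values without a test. Their contents go against their labels. The library labelled parental tumor held 5 reads of Ptprc, 22 of the macrophage receptor Csf1r, 3 of C1qa and 21 of the muscle actin Acta1 among 48457411. The library labelled cell line held 3779, 10779, 11698 and 2610 reads of these genes among 41226531. Both labels are kept here as deposited, and no direction between a tumor and its line is drawn.

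Both libraries were low in the presentation genes. On a scale set over all 50 libraries, the library labelled cell line was below all 48 tumors for 9 of the 10 genes, with B2m the exception, for which 2 tumors were below it. The library labelled parental tumor was below all 48 tumors for the same 9 genes and lower than the other library for 8 of them. Psmb9 set them furthest apart, with 55 reads (0.32 log2 CPM) in the library labelled parental tumor and 604 (3.64) in the one labelled cell line, against 4.23 to 6.90 in untreated primaries and 5.78 to 6.92 in untreated transplants. Nlrc5 was at 1.99 and 3.12, Tap1 at 3.31 and 4.59, Psmb8 at 4.12 and 5.23, and H2-K1 at 6.89 and 7.81, each first in the library labelled parental tumor.
B2m and Tapbp hardly separated the 2 libraries, at 9.80 and 9.62 for B2m and 6.82 and 6.78 for Tapbp. The constitutive subunits were within the range of the untreated tumors or just above it, with Psmb5 at 5.10 in both libraries. Accordingly the log2 ratio of Psmb9 to Psmb6 was -7.23 in the library labelled parental tumor and -3.55 in the one labelled cell line, against -3.32 to -1.09 in untreated primaries. Adding the library labelled parental tumor to the untreated primaries left all 10 genes raised by RT with isotype, and 3 rather than 2 higher in untreated transplants. That library was low in most of these genes, so adding it lowers the untreated mean and is no independent check of the calls.

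**Figure D5:**
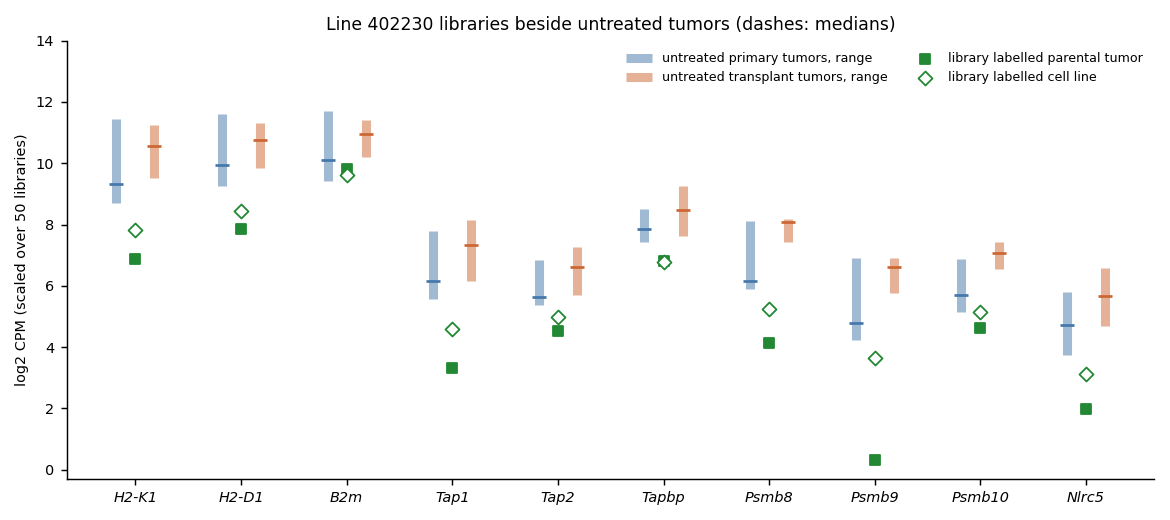
Log2 CPM, scaled over 50 libraries, of the 10 genes (x axis) in the library labelled parental tumor (filled square) and the library labelled cell line (open diamond). Bars give the range and dashes the median of 8 untreated primaries (blue) and 4 untreated transplants (orange). For 9 genes both symbols lie below both bars, and for B2m both lie within the range of the untreated primaries.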

How the data were processed

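Bulk RNA-seq was made from oligo-dT selected RNA (KAPA stranded kit) of 50 samples. The deposited values are raw counts per gene: reads had been trimmed by the authors (Trimmomatic 0.36) and mapped to mm10 by STAR with GENCODE gene models, and each gene's reads counted the HTSeq way. The strand setting is not given in the sources used here. Reads of Nlrc5, Tapbp, Tap2, Psmb8, Psmb10 and B2m therefore cannot be told from those of genes overlapping them on the other strand. The same holds for Tap1 and Psmb9 in the 212 bases where their gene records overlap. All counts were used as deposited; 37408 of 37469 genes matched a symbol.

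Groups came from the labels. Each tumor library is 1 tumor, from a separate mouse per the study's text, and p-values measure the spread between these libraries. Replicate numbers follow deposit order and pair nothing. Of 136 pairs within groups none agreed within sampling noise (lowest chi-square per degree of freedom 93.6). The 10 members, the lists and the tests were chosen with earlier results of these data known. The named genes are the members, the fixed lists of related genes (1 interferon signalling gene is not reported here) and the nearest genes of each member by correlation.

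edgeR 4.0.16 (quasi-likelihood, TMM, filterByExpr) was fitted to all 48 tumors with a mean per group, and p-values were Benjamini-Hochberg adjusted over 19327 genes, with 0.05 as threshold, in 14 comparisons. Log2 CPM used a prior count of 2. Ratios were tested by exact permutation, and relations with 100000 permutations within groups (scipy 1.17.1). Alternatives were DESeq2 1.42.0, limma 3.58.1 voom, DESeq2 size factors, no filter, a muscle covariate, fits of the compared groups alone, the library labelled parental tumor as a ninth untreated primary, ratios of counts plus 0.5, and leaving out each library. For the ratios only transplants given isotype were left out. Leaving out primaries and the averaged contrasts were added after seeing the data. The fitting steps were tested on simulated data.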

Additional observations from a re-analysis of the deposited data

Results flagged for a closer look

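The 10 genes and 3 subunit ratios were examined in each of the 8 groups, each measure in each group being 1 case, and in 7 cases a single library stood far from the rest of its group. Chance alone gives about 1 in 20 of all cases examined. The cases are not independent, as the genes vary together within groups and several of the 7 come from 1 library. Tap1 was high in the untreated primary of replicate 4, at 7.81 log2 CPM. In the primary of replicate 5 given RT and anti-PD-1, Tap1 (5.74), Tapbp (7.59) and the log2 Psmb8 to Psmb5 ratio (0.45) were low. Psmb8 was low in the untreated transplant of replicate 4, at 7.45 log2 CPM. Among transplants given RT and anti-PD-1, the log2 Psmb8 to Psmb5 ratio was low in replicate 1 (2.91) and the log2 Psmb10 to Psmb7 ratio in replicate 2 (0.16).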

How the results depend on the processing

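Of 2840 single-gene values under the alternatives, 2740 kept their direction and side of the threshold, 62 lost a call, 38 gained one and 0 reversed. The call of all 10 genes for RT in primaries with isotype was the same in every alternative run. With the compared groups alone in the fit, 1 gene passed between untreated models, 0 between irradiated models with anti-PD-1, 1 for RT in transplants with isotype and 2 for RT in primaries with anti-PD-1. limma voom gave 1 and 3 for these RT comparisons in transplants and primaries, and DESeq2 1 for RT in transplants with isotype. Averaging the 4 treatments gave 10 between models. Adding the library labelled parental tumor to untreated primaries gave a Psmb9 to Psmb6 difference between untreated models of 1.69 (exact permutation adjusted p = 0.0853). The cause of these changes was not tested. The averaged contrast took in more tumors and also the treated groups.

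Leaving out 1 library at a time, the genes called ran from 2 to 7 between untreated models, 2 to 7 between unirradiated models with anti-PD-1, 0 to 3 between irradiated models with anti-PD-1, 0 to 3 for RT in transplants with isotype and 3 to 10 for RT in primaries with anti-PD-1. For the ratios only transplants given isotype were left out. The ratio differences ran from 0.90 to 1.45 for Psmb9 to Psmb6 between untreated models. With RT in transplants they ran from 0.42 to 0.81 for Psmb8 to Psmb5 and from 0.74 to 1.29 for Psmb9 to Psmb6. Depth did not limit these genes, with at least 591 reads in every tumor. For the ratios, 4 against 4 transplants cannot give an exact permutation p below 0.0286.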
